A study of Mus musculus with 2 samples.

Results

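Foxd1, Tcf21, Aldh1a2 and Penk are genes used to mark the renal stroma, and their read densities were compared between p53 knockout and wild-type cells that had been sorted as nephron progenitors. They were chosen by gene symbol, and all 4 were found among the 10617 distinct symbols analysed. The cells came from mouse kidneys at embryonic day 15.5, on a mixed CD1 and C57BL background. The knockout group (KO) had the genotype Six2CreGFP+;p53f/f, in which Cre made in Six2-expressing cells removes the floxed p53 gene, Trp53. The wild-type group (WT) was Six2CreGFP+;p53+/+, so both groups carried the Six2 transgene for Cre and GFP, while WT had no floxed allele. There was 1 library per genotype, so no difference below has a replicate check and none was tested; how many embryos gave RNA to a library is not given in the sources used here.

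The renal stroma is the loose mesenchyme that surrounds the nephron progenitors and the branching ureteric bud. Cells that express the forkhead factor Foxd1 give rise to interstitial fibroblasts, pericytes, vascular smooth muscle and mesangium, while cells that express Six2 give rise to the epithelium of the nephron. The stroma also signals to its neighbours, in part through retinoic acid, which Aldh1a2 makes and which sustains the receptor gene Ret in the ureteric bud. Tcf21 is a basic helix-loop-helix factor of kidney mesenchyme and of podocytes, and Penk codes for proenkephalin, the precursor of the opioid peptides called enkephalins. In bulk RNA such as this, fewer cells of a type and less RNA per cell cannot be told apart.

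The 4 genes did not share one pattern. Penk was far less dense in KO than in WT, Tcf21 and Foxd1 were lower by smaller amounts that resembled each other, and Aldh1a2 was at nearly the same, high level in both libraries. The start sites of 3 of the 4 genes had a sequence in RefSeq (GRCm38.p6), each running from 250 bases before the start to 50 bases after it. They are shown because Foxd1 and Tcf21 were both lower in KO while Aldh1a2 was not. Capitals mark E-boxes, CANNTG, the letters that basic helix-loop-helix factors such as Tcf21 bind.
Foxd1: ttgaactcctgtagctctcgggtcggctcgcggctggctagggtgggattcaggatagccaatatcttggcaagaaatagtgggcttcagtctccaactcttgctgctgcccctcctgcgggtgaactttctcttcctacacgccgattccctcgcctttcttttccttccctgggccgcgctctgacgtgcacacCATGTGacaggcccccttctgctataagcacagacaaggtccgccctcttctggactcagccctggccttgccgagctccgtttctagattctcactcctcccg
Tcf21: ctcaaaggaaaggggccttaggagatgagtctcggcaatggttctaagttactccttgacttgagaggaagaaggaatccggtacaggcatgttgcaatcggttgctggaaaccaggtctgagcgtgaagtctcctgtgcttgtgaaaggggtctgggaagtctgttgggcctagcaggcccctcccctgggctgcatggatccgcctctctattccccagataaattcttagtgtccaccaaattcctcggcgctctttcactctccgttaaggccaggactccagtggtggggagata
Aldh1a2: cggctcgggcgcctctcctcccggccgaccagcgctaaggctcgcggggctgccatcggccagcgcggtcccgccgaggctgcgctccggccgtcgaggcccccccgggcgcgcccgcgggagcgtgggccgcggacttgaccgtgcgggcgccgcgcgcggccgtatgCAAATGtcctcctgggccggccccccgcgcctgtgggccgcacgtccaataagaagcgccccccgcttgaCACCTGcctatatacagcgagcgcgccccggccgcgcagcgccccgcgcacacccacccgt

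The Foxd1 window is chr13:98353995-98354294 on the plus strand, the Tcf21 window chr10:22820094-22820393 on the minus strand and the Aldh1a2 window chr9:71215539-71215838 on the plus strand. Foxd1 had 1 E-box, which began at -54 from the start site, Aldh1a2 had 2, at -81 and -11, and Tcf21 had 0. Of 32851 RefSeq windows of the same length, 72.3% held an E-box. The other motifs were searched on both strands, and none of their matches overlapped an E-box. CCAAT was found at -192 in Foxd1 and at -36 in Aldh1a2, and is held by 37.4% of all windows. GGGCGG was found at -14 in Foxd1, on the other strand, and is held by 35.7%. TATAAA (13.6% of windows), the nuclear receptor half-site AGGTCA (16.3%) and the p53 half-site consensus (8.36%) had no match in these 3 windows. The base composition differed, with 57.7% G and C in the Foxd1 window, 53.3% in that of Tcf21 and 78% in that of Aldh1a2. These matches describe letters only.

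Values are read densities in RPKM, reads scaled by gene length and by library depth, so levels can be set beside each other across genes. The difference used throughout is log2(KO + 1) minus log2(WT + 1), which understates the change of genes with low densities. Ratios are KO density over WT density, with exact (Clopper-Pearson) 95% intervals from estimated reads, which cover counting error only. A difference of 1.5-fold on the log2 scale was the size rule, applied to the 5309 genes whose density, averaged over both libraries, was at least 7.30 RPKM, the median of listed genes. All 4 genes lay over that floor.

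Penk (ENSMUSG00000045573, chr4:4133531-4138819, minus strand of GRCm38) had 15.3 RPKM in KO and 46.9 RPKM in WT. The ratio was 0.326 (95% interval 0.311 to 0.342), from an estimated 2140 reads in KO and 6988 in WT. Its log2 difference of -1.56 ranked 22 from the lowest of the 5309 genes over the floor. In the authors' deposited table Penk was 2.95-fold lower in KO. It was the lowest of the 4 genes in both libraries, at rank 3392 by density among all listed genes in KO and rank 1192 in WT.

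Tcf21 (ENSMUSG00000045680, chr10:22817279-22820128, minus strand) had 51.9 RPKM in KO and 79.5 RPKM in WT, a ratio of 0.653 (95% interval 0.637 to 0.669). Its log2 difference was -0.61, at rank 119 from the lowest. Foxd1 (ENSMUSG00000078302, chr13:98354245-98356705, plus strand), a gene with a single exon, had 43.1 RPKM in KO and 63.7 RPKM in WT, a ratio of 0.677 (95% interval 0.659 to 0.695). Its log2 difference was -0.55, at rank 142 from the lowest. The counting intervals of the Tcf21 and Foxd1 ratios overlap, while that of Penk lies below both. The density of Foxd1 relative to Tcf21 was accordingly close in the 2 libraries, 0.832 in KO and 0.802 in WT. Relative to Penk, Foxd1 was 2.82 times as dense in KO and 1.36 times in WT.

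Aldh1a2 (ENSMUSG00000013584, chr9:71215789-71296243, plus strand), which codes for the enzyme that oxidises retinaldehyde to retinoic acid, had 286 RPKM in KO and 272 RPKM in WT. The ratio was 1.051 (95% interval 1.04 to 1.06) and the log2 difference 0.07. It was the highest of the 4 genes in both libraries, at rank 170 of 10617 listed genes in KO and rank 180 in WT. Aldh1a2 was 18.7 times as dense as Penk in KO and 5.79 times in WT. The order of levels, Aldh1a2 over Tcf21 over Foxd1 over Penk, was the same in both libraries.

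By the 1.5-fold rule, Penk and Tcf21 were lower in KO, 2 of the 4 genes, and none was higher. Among all genes over the floor, 128 of 5309 or 2.41% were lower by that rule and 35 or 0.659% were higher. Tcf21 and Foxd1 lie close to either side of the limit, and their calls depend on the scaling. Tcf21 was past 1.5-fold under 3 of 6 other settings and Foxd1 under 1 of 6, whereas Penk was past it under all 6 and Aldh1a2 under none. On the authors' own scaling, Tcf21 was 1.47-fold and Foxd1 1.42-fold lower in the authors' deposited table.

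**Figure D1:**
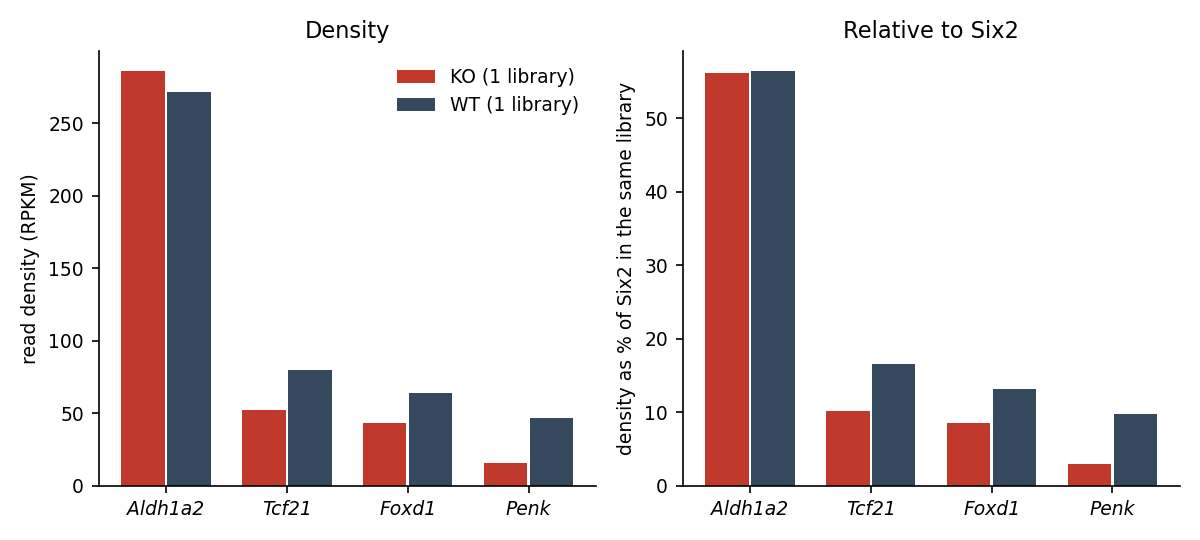
Read density in RPKM (left) and density as a percentage of Six2 in the same library (right) for the 4 genes, with KO as red bars and WT as dark bars, 1 library each. Penk, at 15.3 RPKM in KO and 46.9 RPKM in WT, differs most in proportion, and Aldh1a2 is near 56% of Six2 in both libraries.

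**Figure D2:**
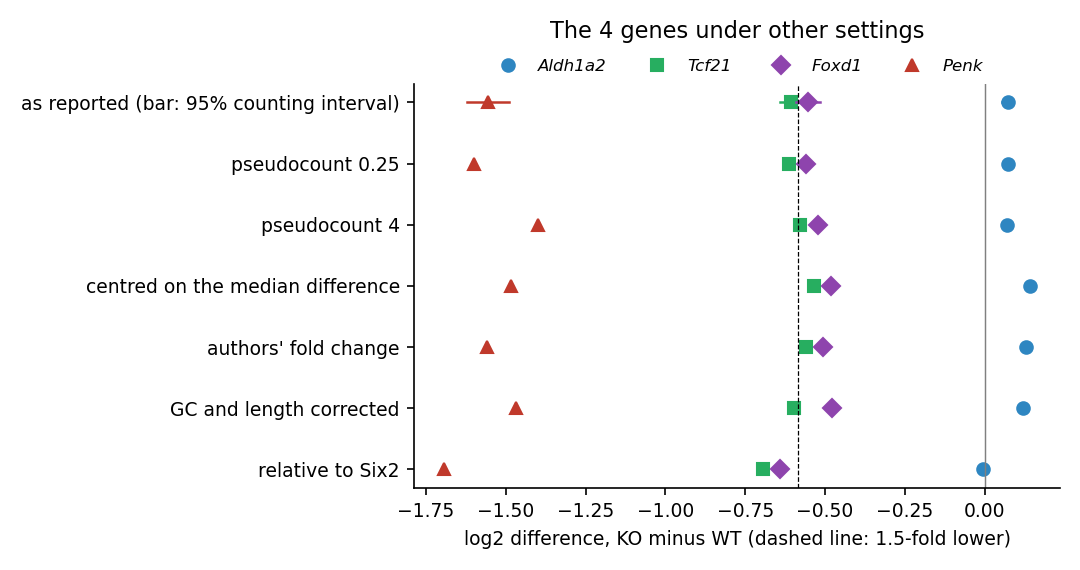
Log2 difference of KO minus WT for the 4 genes (horizontal axis) as reported and under 6 other settings (rows), with the counting interval as a bar on the top row and the 1.5-fold limit dashed. Penk stays between -1.69 and -1.40, Tcf21 and Foxd1 lie on both sides of the limit, and Aldh1a2 lies between -0.01 and 0.14.

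Trp53 was lower in the KO library, at 5.38 RPKM in KO and 33.9 RPKM in WT; its density covers the whole gene, exons outside the deleted part included. Six2, whose transgene was used for the sort, was at 509 RPKM in KO and 482 RPKM in WT, a ratio of 1.06 (95% interval 1.046 to 1.065). The median log2 difference of all genes over the floor was -0.07. Depth was about 85600000 reads in KO and 91200000 in WT, as inferred from the steps in the authors' fold changes.

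Six2 gives a scale inside each library that no library scaling alters. Aldh1a2 stood at 56.1% of the Six2 density in KO and 56.3% in WT. Tcf21 stood at 10.2% in KO and 16.5% in WT, and Foxd1 at 8.47% in KO and 13.2% in WT. Penk stood at 3.004% in KO and 9.72% in WT. On this scale Foxd1 and Tcf21 were both past 1.5-fold lower, at log2 differences of -0.64 and -0.69, and that of Aldh1a2 was -0.01. The levels of Foxd1, Tcf21 and Aldh1a2 were measured in cells sorted by the Six2 transgene. The label of stroma genes says where they are used as markers, not which cells in these libraries held the RNA.

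The other stroma markers were mostly lower in KO. Of 33 names on the stroma list, 30 were analysed, and 26 of them were lower and 4 higher, where 63.9% of all listed genes were lower. Of the 18 over the floor, 10 were at least 1.5-fold lower in KO and 0 at least 1.5-fold higher. Among all genes over the floor, 2.41% were lower and 0.659% higher by that rule. The median log2 difference of the 30 was -0.83, against -0.11 for all listed genes, and the median ratio 0.405. Stroma markers had been examined before in these data, so their direction was known when the names were chosen.

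Of the 4 densest stroma markers, 3 were within 1.5-fold and Vim was lower by more. Gpc3, a cell surface glypican, had 280 RPKM in KO and 289 RPKM in WT, and Sparc, a matrix protein that binds collagen, had 230 RPKM in KO and 275 RPKM in WT. The nuclear receptor gene Nr2f2 had 163 RPKM in KO and 140 RPKM in WT. Vim, the intermediate filament vimentin, had 37.3 RPKM in KO and 61.3 RPKM in WT, a ratio of 0.608 and a log2 difference of -0.70, larger than those of Tcf21 and Foxd1. Aldh1a2 was denser than all 30 in KO, and 2 of them were denser than Aldh1a2 in WT.

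Set among the 30 by ratio, Aldh1a2 lay near the top with 26 below it, Foxd1 and Tcf21 each had 21 below them, and Penk had 11 below it. The genes named here for their place beside a member were chosen after their values were seen. Just above Foxd1 lay Nr2f1, a nuclear receptor gene, with 13.7 RPKM in KO and 20.1 RPKM in WT (ratio 0.685). Just below Tcf21 lay Sfrp1, a secreted Wnt inhibitor, with 15.2 RPKM in KO and 24.0 RPKM in WT (ratio 0.634). Just above Penk lay Dcn, the matrix proteoglycan decorin, which Foxd1 is known to repress in mouse kidney stroma, with 4.76 RPKM in KO and 14.3 RPKM in WT (ratio 0.332). Just below Penk lay Alx1, a transcription factor gene, with 0.831 RPKM in KO and 2.77 RPKM in WT (ratio 0.2996). Just above Aldh1a2 lay Cxcl12, a chemokine gene, with 25.8 RPKM in KO and 24.5 RPKM in WT (ratio 1.052).

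Sorted by role, after the values were seen, the matrix genes had the lowest median ratio of the stroma markers. Single genes of other roles were as low, such as the secreted signal Ntn1 (ratio 0.202) beside the collagen gene Col1a1 (ratio 0.207). The ratios of matrix genes reached 1.23 at the top. Of 12 matrix genes and matrix enzymes, 11 were lower in KO, 9 of them by at least 1.5-fold, with a median ratio of 0.284, where 5.49% of all listed genes were at least 1.5-fold lower. The collagen gene Col1a1 had 7.82 RPKM in KO and 37.8 RPKM in WT. Of 7 transcription factor genes, 5 were lower, 2 of them by at least 1.5-fold, with a median ratio of 0.829, and their ratios ran from 0.2996 for Alx1 to 1.26 for Meis2. The ratios of Foxd1 and Tcf21, both transcription factors, fall inside that range. It is wide enough to hold Penk and Aldh1a2 as well, so it does not set Foxd1 and Tcf21 apart. Of 4 cell surface genes, all 4 were lower with a median ratio of 0.358; Pdgfra, a growth factor receptor of fibroblasts, had 3.43 RPKM in KO and 11.7 RPKM in WT.

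**Figure D3:**
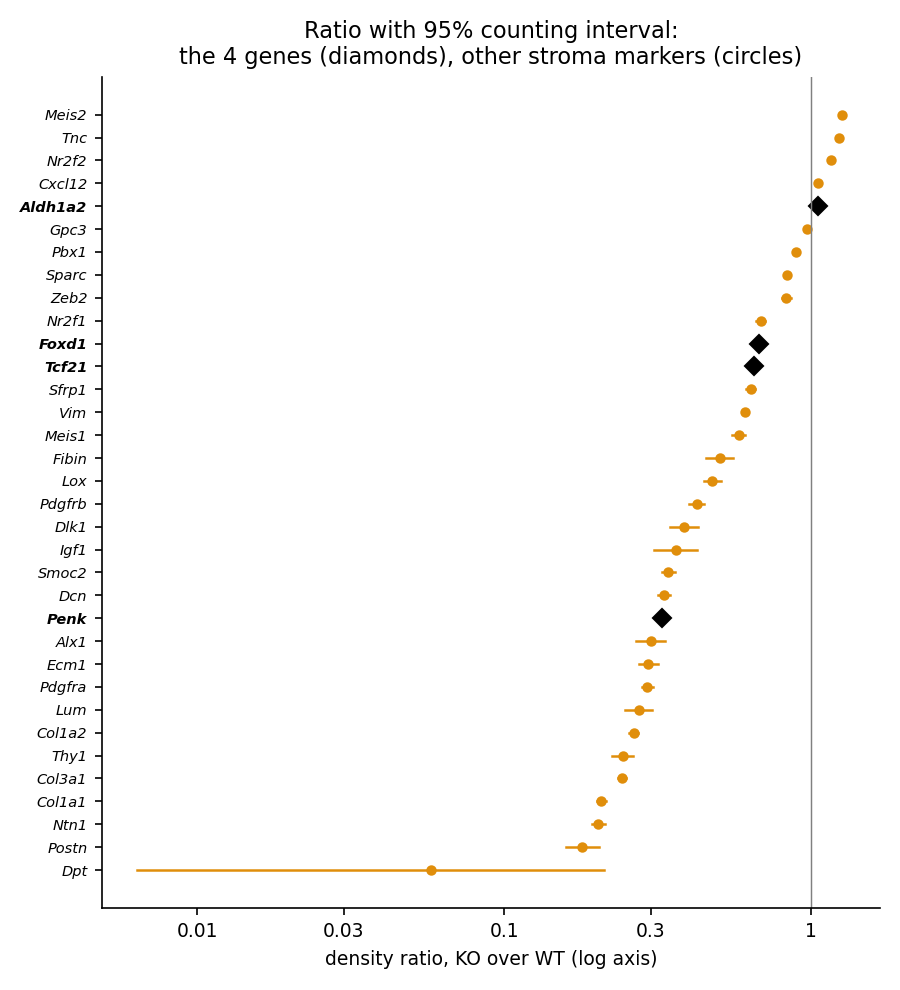
Density ratio of KO over WT on a log axis for the 4 genes (black diamonds) and 30 other stroma markers (orange circles), from the highest ratio at the top, with 95% counting intervals as bars. Aldh1a2 lies at 1.051, Foxd1 and Tcf21 at 0.677 and 0.653, and Penk at 0.326, between the matrix gene Dcn and the transcription factor gene Alx1.

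**Figure D4:**
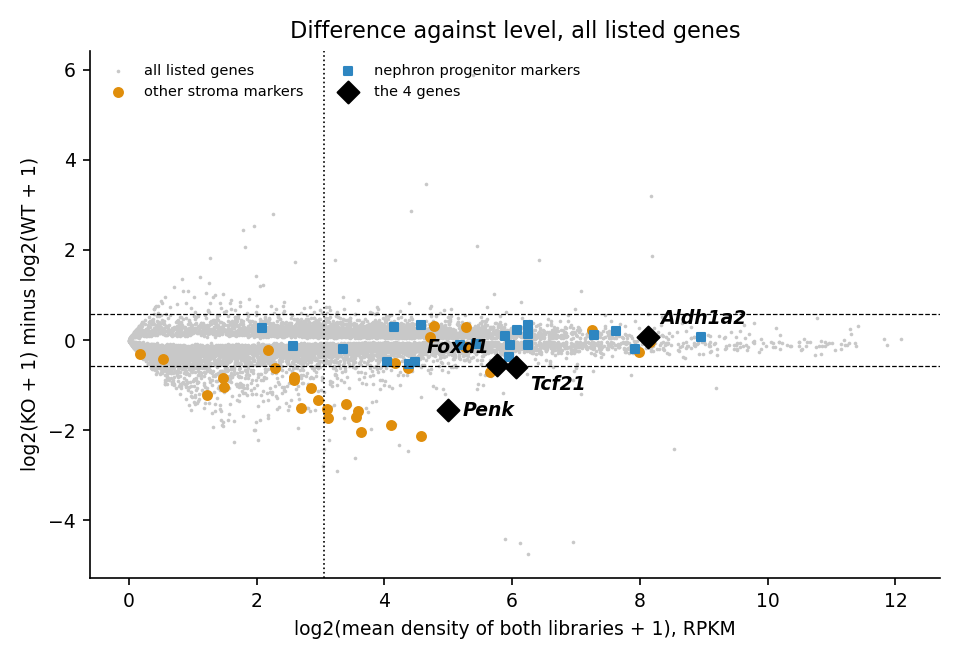
Log2 difference of KO minus WT against log2 mean density for all listed genes (grey), the 4 genes (diamonds), other stroma markers (circles) and nephron progenitor markers (squares), with dashed lines at 1.5-fold and a dotted line at the density floor. Penk lies at -1.56, below the progenitor markers, Foxd1 and Tcf21 near the lower dashed line, and Aldh1a2 near 0 at high density.

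Mural and mesangial cells descend from Foxd1-expressing stroma. Of their 14 analysed markers, 13 were lower in KO, where 63.9% of all listed genes were lower. Only 3 of the 14 lay over the density floor, 2 of them lower and 1 higher. The 63.9% includes denser genes and is therefore not a like share here. Of the 3 over the floor, 1 was at least 1.5-fold lower, where 2.41% of all genes over the floor were. The median ratio of the 14 was 0.405. Their median log2 difference was -0.34, which the pseudocount makes smaller for genes of low density. Des, the filament protein desmin, was the exception, at 50.7 RPKM in KO and 42.0 RPKM in WT. Notch3, a receptor of mural cells, had 16.3 RPKM in KO and 19.8 RPKM in WT, and Mcam, an adhesion molecule, had 12.3 RPKM in KO and 20.0 RPKM in WT. Cspg4, a proteoglycan of pericytes, had 6.82 RPKM in KO and 7.58 RPKM in WT. Acta2, smooth muscle actin, named after its value was seen, had 2.84 RPKM in KO and 10.3 RPKM in WT.

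The cadherin Fat4 of stromal cells and its ligand Dchs1 form a signal to the nephron progenitors. Genes of this pathway showed small differences. Of 9 analysed, 7 were higher and 2 lower in KO, with a median log2 difference of 0.08, and none of the 8 over the floor reached 1.5-fold. Fat1, a relative of Fat4, had 43.4 RPKM in KO and 40.8 RPKM in WT. Yap1, a coactivator downstream of the Hippo kinases, had 43.3 RPKM in KO and 38.9 RPKM in WT, and Tead1, its partner on DNA, had 21.3 RPKM in KO and 20.1 RPKM in WT. Dchs1 had 29.9 RPKM in KO and 28.8 RPKM in WT, and Fat4, named after its value was seen, had 13.2 RPKM in KO and 12.6 RPKM in WT.

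Retinoic acid is made from retinol in successive oxidations, the last by an Aldh1a enzyme, and is broken down by Cyp26 enzymes. All 11 analysed genes of synthesis, binding and breakdown besides Aldh1a2 were lower in KO, where 63.9% of all listed genes were lower. Their median ratio was 0.596 and their median log2 difference -0.26. Of the 4 over the floor 1 was at least 1.5-fold lower, where 2.41% of all genes over the floor were. Adh5, an alcohol dehydrogenase, had 41.9 RPKM in KO and 44.2 RPKM in WT. Dhrs3, which turns retinaldehyde back into retinol, had 8.66 RPKM in KO and 12.2 RPKM in WT. Crabp1, a retinoic acid-binding protein, had 7.08 RPKM in KO and 11.9 RPKM in WT, and was the one past 1.5-fold.

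Aldh1a1, a relative of Aldh1a2 with the same activity, was low, at 0.0683 RPKM in KO and 0.198 RPKM in WT. Of the Cyp26 genes, named after their values were seen, Cyp26b1 had 0.195 RPKM in KO and 0.606 RPKM in WT, and Cyp26a1 had 0.184 RPKM in KO and 0.414 RPKM in WT. Adh7 was listed at 0 in KO, where 3 reads would have given 0.00925 RPKM, and had 0.0293 RPKM in WT. Aldh1a2 was thus the gene of this pathway with the highest density in both libraries among those analysed.

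Receptors and cofactors that read retinoic acid differed little where they were dense. Of 12 analysed genes, 9 were lower and 3 higher in KO. That is 75% lower, near the 63.9% of all listed genes. Their median ratio was 0.909 and their median log2 difference -0.13. Of the 7 over the floor, 1 was at least 1.5-fold lower, where 2.41% of all genes over the floor were. The receptor gene Rxrb had 22.3 RPKM in KO and 23.8 RPKM in WT, Rarb had 18.9 RPKM in KO and 17.7 RPKM in WT, and Rxra had 13.1 RPKM in KO and 13.99 RPKM in WT. Below the floor, the receptor gene Rarg had 1.97 RPKM in KO and 4.44 RPKM in WT (ratio 0.443). Tgm2, also below it, had 1.57 RPKM in KO and 5.49 RPKM in WT (ratio 0.286). Both were named after their values were seen. Ecm1, an extracellular matrix gene that is also on the stroma list, was the one over the floor past 1.5-fold. It was named after its value was seen, with 4.998 RPKM in KO and 16.9 RPKM in WT. Ret, which retinoic acid sustains in the ureteric bud, was low in both, at 0.305 RPKM in KO and 0.445 RPKM in WT.

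Proenkephalin is cut by proteases and trimmed by carboxypeptidases to yield enkephalins, which act on opioid receptors. Of 11 analysed genes for opioid precursors, their processing and their receptors, 8 were lower and 3 higher in KO. That is 72.7% lower, near the 63.9% of all listed genes. The median ratio was 0.651 and the median log2 difference -0.13. None of the 4 over the floor reached 1.5-fold on the log2 scale, where 2.41% of all genes over it were lower by that rule. Below the floor 1 gene was at least 1.5-fold lower, where 5.49% of all listed genes were. It was Mme (ratio 0.437), named after its value was seen. Ogfr, a receptor for met-enkephalin unrelated to the classical opioid receptors, had 70.3 RPKM in KO and 78.0 RPKM in WT. Ctsl, the protease cathepsin L, had 47.4 RPKM in KO and 71.5 RPKM in WT, a log2 difference of -0.58. Its density ratio of 0.664, taken without the pseudocount, was 1.51-fold lower, so Ctsl lay at the limit. The carboxypeptidase gene Cpd had 47.8 RPKM in KO and 38.5 RPKM in WT, and Cpe had 37.9 RPKM in KO and 36.02 RPKM in WT.

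The other opioid precursor genes were far less dense than Penk. Pomc, the precursor of beta-endorphin, had 2.49 RPKM in KO and 3.94 RPKM in WT. Pdyn, the precursor of the dynorphins, had 0.570 RPKM in KO and 0.277 RPKM in WT, a ratio of 2.06 (95% interval 1.54 to 2.77), from an estimated 141 reads in KO and 73 in WT. Penk and Pomc were lower in KO while Pdyn was higher.

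Tcf21 binds DNA as a dimer with E proteins, and Id proteins block such dimers. Of 10 analysed genes of E proteins, Id proteins and other mesenchymal helix-loop-helix factors, 6 were higher and 4 lower in KO, with a median log2 difference of 0.12, and none of the 7 over the floor reached 1.5-fold. Id1 had 240 RPKM in KO and 192 RPKM in WT, Id2 had 232 RPKM in KO and 180 RPKM in WT, and Id3 had 188 RPKM in KO and 176 RPKM in WT. The E protein gene Tcf3 had 67.2 RPKM in KO and 70.7 RPKM in WT. Below the floor, 3 genes were at least 1.5-fold lower, where 5.49% of all listed genes were. All 3 were named after their values were seen. Twist1, a factor of mesenchyme, had 1.34 RPKM in KO and 3.91 RPKM in WT, a ratio of 0.342 (95% interval 0.288 to 0.404). Twist2 had 1.28 RPKM in KO and 3.48 RPKM in WT (ratio 0.369), and Tcf15 had 0.369 RPKM in KO and 1.11 RPKM in WT (ratio 0.334).

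Among forkhead genes, 3 of 8 names were analysed besides Foxd1. Foxc1 had 99.7 RPKM in KO and 90.0 RPKM in WT, and Foxc2 had 74.0 RPKM in KO and 77.6 RPKM in WT; both are factors of early kidney mesenchyme. Foxd3, a neural crest factor, had 0.0295 RPKM in KO and was listed at 0 in WT, where 3 reads would have given 0.0142 RPKM.

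Markers of the nephron progenitors themselves were split. Of 21 analysed, 10 were higher and 11 lower in KO, with a median log2 difference of -0.07, and none of the 19 over the floor reached 1.5-fold. Beside Six2, Spock2 had 227 RPKM in KO and 258 RPKM in WT, Sall1 had 211 RPKM in KO and 184 RPKM in WT, and Uncx had 162 RPKM in KO and 149 RPKM in WT. Some less dense progenitor markers, named after their values were seen, had ratios close to the 0.677 of Foxd1. Cited1, a marker of the least committed progenitors, had 16.1 RPKM in KO and 23.6 RPKM in WT (ratio 0.681), Phf19 had 12.8 RPKM in KO and 18.3 RPKM in WT (ratio 0.697), and Hoxc11 had 17.5 RPKM in KO and 25.1 RPKM in WT (ratio 0.698). The sum over the list was 1771 RPKM in KO and 1741 RPKM in WT, while the sum over the stroma markers was 935 RPKM in KO and 1144 RPKM in WT.

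Podocytes also express Tcf21. Of 11 analysed podocyte markers, 10 were lower in KO, where 63.9% of all listed genes were lower, and their sum was 374 RPKM in KO and 520 RPKM in WT. Cdkn1c, a cell cycle inhibitor that is also on in other kidney cells, made up much of that sum with 170 RPKM in KO and 291 RPKM in WT. Foxc2 is shared with the forkhead list, Vegfa had 51.6 RPKM in KO and 54.3 RPKM in WT, and Nes had 50.8 RPKM in KO and 64.4 RPKM in WT.

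Markers of endothelium, leukocytes, erythroid cells and ureteric bud, which the sort could also hold, were mostly lower in the same library, against 63.9% of the genes listed. All 15 endothelial markers were lower, and their sum was 15.5 RPKM in KO and 35.0 RPKM in WT. All 13 analysed leukocyte markers were lower, at a sum of 3.001 RPKM in KO and 18.4 RPKM in WT. Of 11 erythroid markers 10 were lower, at a sum of 56.9 RPKM in KO and 661 RPKM in WT, most of it from globin genes, which resemble each other so closely that reads may be split among them, and Hba-x was listed at 0 in KO. All 12 ureteric bud markers were lower, at a sum of 19.3 RPKM in KO and 35.8 RPKM in WT. None of the leukocyte or ureteric bud markers and 2 of the 15 endothelial markers lay over the density floor. Genes that missed the corrected p-value limit of 0.05 are not analysed here, so sparse markers that differed little may be absent. The 63.9% includes denser genes and is therefore not a like share for these lists, or for others with many genes below the floor. The neural crest and glia markers were too few to show whether they shared this, with 3 of 5 lower, or 60%. Elavl4, the densest, was higher, at 4.17 RPKM in KO and 3.08 RPKM in WT. Foxd3, also higher, had an estimated 6 reads in KO and 0 in WT. The lower ones, named after their values were seen, were Stmn2 (ratio 0.0888), Th (ratio 0.142) and Ret (ratio 0.686). The whole list came to a sum of 4.68 RPKM in KO and 5.40 RPKM in WT. The part of these cells in the lower densities of Penk, Tcf21 and Foxd1 was not tested.

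**Figure D5:**
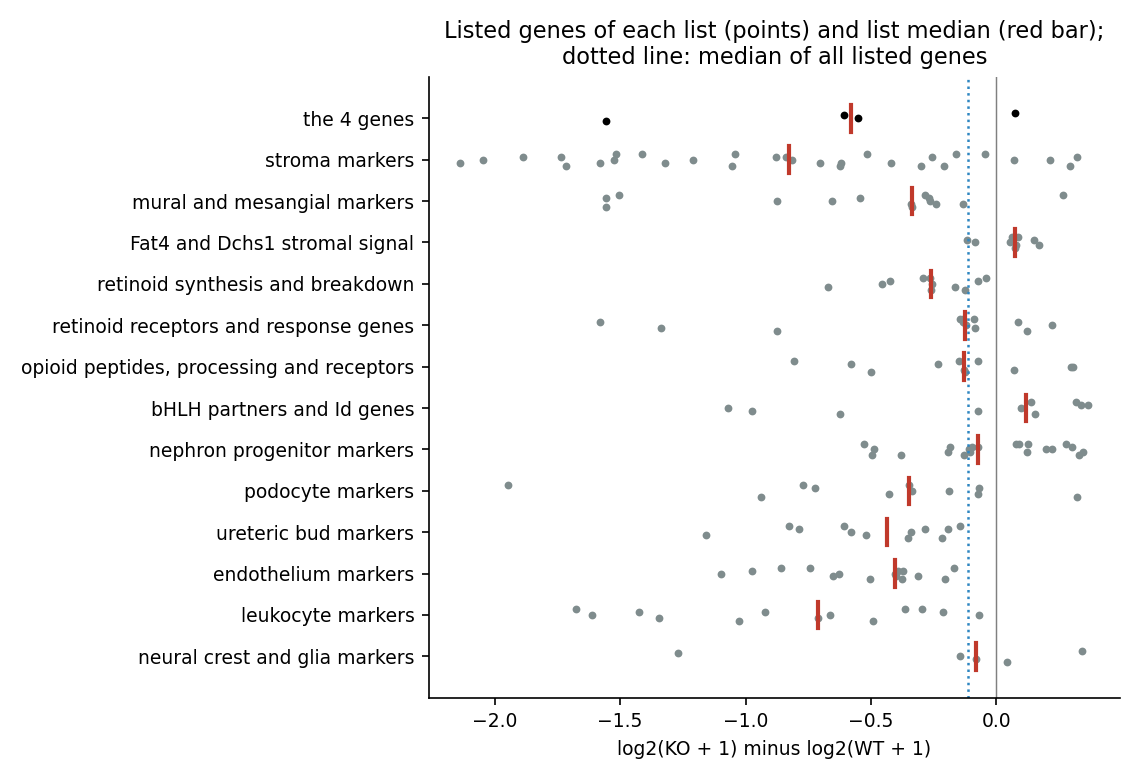
Log2 difference of KO minus WT for each analysed gene (points) of the 4 genes and 13 lists (rows), with list medians as red bars and the median of all listed genes as a dotted line. The stroma markers spread from below -2 to above 0, the Fat4 pathway and progenitor markers lie around 0, and the endothelial, leukocyte and ureteric bud markers lie below 0; the forkhead and erythroid lists are not drawn.

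The genes nearest to each member in the plane of log2(KO + 1) and log2(WT + 1), over 2 libraries and 8774 other protein-coding genes with a name, were named for each. Nearest to Penk were Emilin1, an elastic fibre glycoprotein gene (17.8 RPKM in KO and 42.2 RPKM in WT, distance 0.252 log2 units), Akap12, a scaffold of protein kinase A (18.4 RPKM in KO and 39.9 RPKM in WT, distance 0.337), and Islr, a cell surface gene of mesenchymal cells (17.2 RPKM in KO and 37.1 RPKM in WT, distance 0.366). Nearest to Tcf21 were Btg2, an antiproliferative gene that p53 activates (49.97 RPKM in KO and 77.7 RPKM in WT, distance 0.0619), Zfp36, which promotes messenger RNA decay, and Ldhb, a subunit of lactate dehydrogenase. Nearest to Foxd1 were Rnps1, a splicing factor (45.0 RPKM in KO and 62.4 RPKM in WT, distance 0.0687), Gcsh of the glycine cleavage system and the mitochondrial ribosomal gene Mrpl54. Nearest to Aldh1a2 were Fos, an immediate early factor (295 RPKM in KO and 269 RPKM in WT, distance 0.0491), Gpc3 and Tsc22d1. Penk had fewer near neighbours than the others, as its 3 distances were the longest.

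The libraries also differed with base composition and gene length. Over 5263 genes above the floor with a gene model, Spearman's rho between G and C content and the log2 difference was -0.52, given as a description across genes of the same 2 libraries. Foxd1 had 64.2% G and C in its deposited span, Penk 52.7%, Aldh1a2 50.6% and Tcf21 49.9%, where the median of these genes was 50.2%. When the median of genes with like G and C content and length was taken off and the overall median added back, the log2 difference was -1.47 for Penk, -0.60 for Tcf21, -0.48 for Foxd1 and 0.12 for Aldh1a2.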

How the data were processed

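The members and gene lists were chosen with earlier results of these data known. Per the file headers, the authors deposited for each gene a fold change of KO against WT, unsigned as a ratio and signed as a score, and p-values before and after correction. The density that the authors deposited is taken as RPKM, a unit read from its values. Per the submitters' processing notes, CASAVA 1.8, Novoalign 2.08.02 and FastQC and the builds GRCm38 and mm10 were used, with no role given; rules for counting and strand are not given there. The largest corrected p-value in the deposited table is 0.05 when rounded, so genes that missed 0.05 are not analysed here. Genes of low density that differed little may thus be absent from the marker lists, a limit on every count of lower genes. The authors' fold change is the density ratio times 1.04.

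Of 8 symbols on several rows, the densest row was kept. Depth was inferred from genes at 0 in 1 library, whose fold changes were whole multiples of a step within 0.01 of a read in 70 of 75 genes for KO and 150 of 171 for WT. Reads were estimated with GENCODE vM21 exon lengths, available for 10515 rows and cut to the deposited span (2461 bases for Foxd1), so intervals are approximate. Correction used 10 bins of G and C content and 4 of length. Named genes were the members, 3 nearest genes each, the 4 densest of each list, family relatives, Trp53 and Six2; others are said to be chosen later, and some named by the rule are not reported here. Scripts (Python 3.11.15, SciPy 1.17.1) were tested on simulated data.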

Additional observations from a re-analysis of the deposited data

How the results depend on the processing

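No paired analysis was possible because each genotype has 1 library. For the same reason no library could be left out. Centring both libraries on the median difference gave log2 differences of -0.48 for Foxd1, -0.53 for Tcf21, 0.14 for Aldh1a2 and -1.48 for Penk, and the authors' fold change gave -0.51 for Foxd1, -0.56 for Tcf21 and 0.13 for Aldh1a2. Correction for G and C content and length gave -0.48 for Foxd1, 0.12 for Aldh1a2 and -1.47 for Penk, and a pseudocount of 4 gave -1.40 for Penk. Relative to Six2, a setting chosen after seeing the data, the values were -0.64 for Foxd1, -0.69 for Tcf21, -1.69 for Penk and -0.0060 for Aldh1a2, which reversed its sign. The centred, authors' and Six2 values differ by the scale and, for those of the authors and Six2, by having no pseudocount; for the correction by G and C content the cause was not tested. The 35 genes at least 1.5-fold higher became 22 with a pseudocount of 4, 54 when centred, 63 by the authors' fold change, 101 without the floor, 17 with a floor at the upper quartile and 10 at 2-fold. The 128 lower became 583 without the floor, 42 with the upper quartile floor and 46 at 2-fold. The other 16 values stayed within their counting interval or within 1.5 times the count. With 1 library per genotype, the spread between animals is unknown, and p-values of the deposited table compare 2 libraries.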

Other observations

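In the gene ontology terms of the deposited table, Foxd1, Tcf21 and Aldh1a2 share the term for kidney development, and Penk does not carry it. Of 80 listed genes with that term, 49 were lower and 31 higher in KO, or 61.3% lower, close to the 63.9% of all listed genes. Of the 42 over the density floor, 3 were at least 1.5-fold lower, Odc1, Tcf21 and Dcn, and 2 at least 1.5-fold higher, Sox11 and Arid5b, where 2.41% and 0.659% of all genes over the floor were. They had a median log2 difference of 0.02. The term was chosen after the values were seen.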
